A study of Mus musculus with 6 samples.

Results

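Smooth muscle contractile genes were examined as a set of 10: Acta2, Actg2 and Myh11 of the contractile filaments, Tagln, Cnn1, Smtn and Lmod1 of the actin filament, Des and Synpo2 of the supporting cytoskeleton, and the transcriptional coactivator gene Myocd. They were chosen by name, with earlier results of these data known. All 10 were measured among the 19937 genes of the array, each by 1 probe set that the platform annotation assigns to that gene alone. The arrays profiled tumours of SCID mice, 3 from hosts given a pellet of estradiol (E2) and 3 from hosts given a placebo pellet, with 1 array for each tumour. All tumours grew from MASE2 cells, which came from the ascites of an E2-treated transgenic mouse in which adenoviral Cre had switched on the SV40 large and small T antigens in the ovarian surface epithelium. The cells were injected as the pellets were implanted, and each tumour was collected once its host became unwell, with no day and no age given. SCID hosts are without functional T and B lymphocytes but keep their own vessels, fibroblasts and muscle. Since tumour and host are both mouse, an array cannot tell their RNA apart.

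Smooth muscle contracts when phosphorylated myosin slides along actin filaments that carry calponin, caldesmon and tropomyosin, while desmin and dense bodies hold the filaments in place. Most genes of this apparatus are switched on together by serum response factor and its coactivator myocardin, which act through a DNA motif called the CArG box. In a tumour these genes mark vessel walls, activated fibroblasts and any muscle layer of a neighbouring organ, and the muscular coat of the gut is among the tissues richest in them.

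Promoter windows of 300 bases (250 before to 50 after a RefSeq transcript start, build GRCm38.p6) were matched for 6 of the 10 genes. Those of Tagln, Actg2, Myh11 and Myocd were not matched. The CArG box was searched as its name defines it, a run of 6 bases of A or T between a pair of C and a pair of G, with at most 1 mismatch; its pattern reads the same on both strands, and no match overlapped another. Acta2 and Lmod1 each held 2 matches with 1 mismatch, while the windows of Cnn1, Des, Smtn and Synpo2 held 0. Among all 32851 promoter windows, 21.1% held at least 1 such match, 3.7% held 2 or more and 1.63% held an exact match. The windows of Acta2, Lmod1 and Cnn1 are shown because their values differ: Acta2 and Cnn1 stood high in 1 placebo tumour, and Lmod1 lay nearly level across the 6 arrays. Capitals mark the matches.
Acta2, chr19:34255324-34255623, minus strand: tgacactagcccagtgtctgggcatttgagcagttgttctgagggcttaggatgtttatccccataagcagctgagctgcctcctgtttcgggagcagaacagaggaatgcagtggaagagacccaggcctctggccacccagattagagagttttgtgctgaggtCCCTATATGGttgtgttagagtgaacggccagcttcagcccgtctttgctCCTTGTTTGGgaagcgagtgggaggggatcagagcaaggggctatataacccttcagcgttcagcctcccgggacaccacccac
Lmod1, chr1:135324563-135324862, plus strand: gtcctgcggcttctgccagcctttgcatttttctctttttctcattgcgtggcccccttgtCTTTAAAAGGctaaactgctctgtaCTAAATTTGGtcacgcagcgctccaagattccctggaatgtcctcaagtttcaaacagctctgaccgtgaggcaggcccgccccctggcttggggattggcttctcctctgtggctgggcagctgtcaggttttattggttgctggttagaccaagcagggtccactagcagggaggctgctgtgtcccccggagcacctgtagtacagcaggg
Cnn1, chr9:22099003-22099302, plus strand: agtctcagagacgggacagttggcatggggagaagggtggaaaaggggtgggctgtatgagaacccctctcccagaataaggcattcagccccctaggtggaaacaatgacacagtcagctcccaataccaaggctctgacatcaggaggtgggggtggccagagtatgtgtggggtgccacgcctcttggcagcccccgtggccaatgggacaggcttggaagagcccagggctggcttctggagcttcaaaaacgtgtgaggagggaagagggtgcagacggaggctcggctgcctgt

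The array of placebo replicate 3 stood apart and is described here before the comparison of the smooth muscle genes. Its Pearson r with the other arrays over all genes was 0.857 to 0.865, against 0.960 to 0.994 among the others, and genes are not independent replicates. All 20 intestinal epithelium markers were highest there. None passed the comparison of E2 with placebo in limma (0 at an unadjusted p under 0.05). Their mean log2 value was 4.60, 4.48 and 4.78 in the E2 tumours and 4.65, 4.67 and 10.34 in placebo replicates 1, 2 and 3. No detection call was given, so a gene below the lower quartile of all genes on an array (4.22 to 4.39) was treated as not shown to be above background, which held for 6 of the 20 markers, Fabp1 and Sis among them, on all 5 other arrays. Krt19, a keratin gene of simple epithelia that gut epithelium also expresses, measured 8.74 to 9.14 in the E2 tumours and 9.20 to 11.19 in the placebo tumours, with placebo replicate 3 highest. Greb1, the oestrogen target named in the series title, lay above 8.4 log2 with E2 and below 5.4 with placebo, a difference of 3.41 log2 (SE 0.16, limma adjusted p = 0.00131).

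None of the 10 smooth muscle genes passed the comparison of E2 with placebo tumours on 6 arrays. Log2 differences are E2 minus placebo from a limma fit to the whole array, with Benjamini-Hochberg adjusted p-values called under 0.05, and 1.38% of all genes were called (1.06% higher and 0.326% lower with E2). The adjusted p of the 10 genes ran from 0.296 to 0.994, and 1 of them, Smtn, had an unadjusted p under 0.05, as had 16.5% of all genes. In 9 of the 10 genes the mean was lower with E2, against 10306 of all 19937 genes. Without placebo replicate 3 it was lower in 6 of the 10, against 10473 of all genes. The median difference of the 10 was -0.35 log2, against -0.01 over all genes, and it was -0.13 without placebo replicate 3. In bulk tumours, fewer cells of a type and less RNA per cell cannot be told apart.

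**Figure D1:**
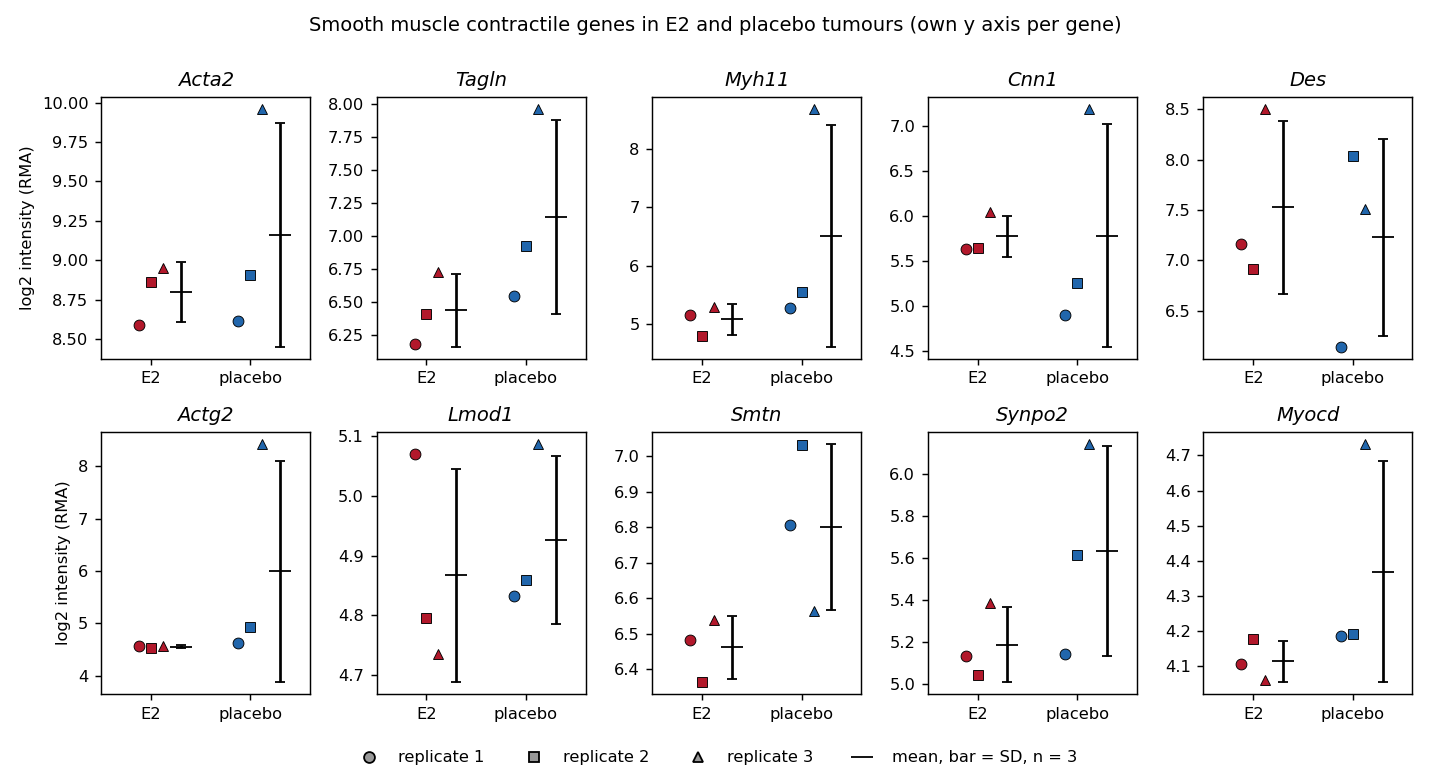
Log2 intensity of each smooth muscle contractile gene (own y axis per panel) in the E2 and placebo tumours; symbols are replicates, and the bar beside each group is its mean with SD (n = 3). Placebo replicate 3, the blue triangle, is the highest point for 8 of the 10 genes, while Des peaks in E2 replicate 3 and Smtn in placebo replicate 2.

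Among the filament genes, the split lay within the placebo group. Actg2, the smooth muscle gamma-actin gene best known from gut and bladder muscle, measured 4.58, 4.53 and 4.57 in the E2 tumours and 4.63, 4.92 and 8.43 in the placebo tumours. Placebo replicate 3 was 3.65 log2 units (12.5-fold) above the mean of the other placebo tumours, and 149 of the 19937 genes had a larger such shift. The groups did not overlap, but placebo replicate 1 lay only 0.056 log2 units above the nearest E2 tumour. Myh11, the smooth muscle myosin heavy chain gene, measured 5.16, 4.78 and 5.29 in the E2 tumours and 5.28, 5.55 and 8.70 in the placebo tumours. It was 3.28 log2 units (9.74-fold) above the mean of the other placebo tumours in placebo replicate 3. Elsewhere the E2 and placebo values of Myh11 overlapped, since placebo replicate 1 lay just under E2 replicate 3. The difference was -1.43 log2 for Actg2 (SE 0.99, limma adjusted p = 0.516) and -1.43 for Myh11 (SE 0.90, adjusted p = 0.483). Without placebo replicate 3 the difference was -0.22 for Actg2 (adjusted p = 0.271) and -0.34 for Myh11 (adjusted p = 0.25).

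Acta2, the smooth muscle alpha-actin gene that vessel walls and activated fibroblasts also express, varied less. It measured 8.59, 8.86 and 8.95 in the E2 tumours and 8.62, 8.91 and 9.96 in the placebo tumours. Placebo replicate 3 was again the highest, by 1.01 log2 units over the next array, and the other 5 arrays spanned 8.59 to 8.95 with the groups interleaved. The difference of -0.36 log2 (SE 0.35, limma adjusted p = 0.629) was 0.04 without that array (adjusted p = 0.913, 95% confidence interval -0.28 to 0.36).

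Of the genes whose products sit along the actin filament, Tagln and Cnn1 shared the high value in placebo replicate 3 and Smtn and Lmod1 did not stand out there. Tagln, which encodes the actin-bundling protein transgelin (SM22), measured 6.18, 6.41 and 6.73 in the E2 tumours and 6.54, 6.93 and 7.97 in the placebo tumours. The groups overlapped, and the difference was -0.71 log2 (SE 0.38, limma adjusted p = 0.409), or -0.30 without placebo replicate 3 (adjusted p = 0.361).

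Cnn1 is the gene of calponin, which restrains the myosin motor. It measured 5.64, 5.64 and 6.04 in the E2 tumours and 4.91, 5.26 and 7.20 in the placebo tumours. Every E2 tumour lay above placebo replicates 1 and 2 and below placebo replicate 3. On 6 arrays the difference was -0.01 log2 (SE 0.59, limma adjusted p = 0.994). Without placebo replicate 3, Cnn1 rose 1.62-fold, a log2 difference of 0.69 (SE 0.16, adjusted p = 0.0288). That call then rested on 2 placebo arrays: leaving out 1 further array gave 0.52 to 0.87 log2, with an adjusted p of 0.017 to 0.119, and the call held in 1 of these 5 fits, the one without placebo replicate 2.

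Smtn, which encodes smoothelin, a protein of contractile smooth muscle, was lower in the E2 tumours without a high value in placebo replicate 3. It measured 6.48, 6.36 and 6.54 in the E2 tumours and 6.81, 7.03 and 6.56 in the placebo tumours. Placebo replicate 3 was the lowest placebo value and lay 0.028 log2 units above the highest E2 tumour. The difference was -0.34 log2 (SE 0.14, 95% confidence interval -0.67 to -0.0059, limma adjusted p = 0.296), and an exact two-sided permutation test gave p = 0.10, the smallest that 3 against 3 allows. Without placebo replicate 3, Smtn fell to 0.728 of its placebo level, a log2 difference of -0.46 (SE 0.11, adjusted p = 0.0322). Leaving out 1 further array gave -0.57 to -0.35 log2, with an adjusted p of 0.0274 to 0.142, and the call held in 1 of these 5 fits, the one without placebo replicate 1.

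Lmod1, the leiomodin gene, whose product nucleates actin filaments, measured 5.07, 4.80 and 4.74 in the E2 tumours and 4.83, 4.86 and 5.09 in the placebo tumours. The groups overlapped throughout, and the highest value in each differed by 0.017 log2 units. The difference of -0.06 log2 had a 95% confidence interval of -0.37 to 0.25 (limma adjusted p = 0.844).

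In the comparison without placebo replicate 3, Cnn1 rose, Smtn fell and the other 8 genes did not pass, where 11.6% of all genes passed (6.4% higher and 5.21% lower). The groups did not overlap for 3 of the 10 genes on 6 arrays (Actg2, Smtn and Myocd, all lower with E2) and for 26.3% of all genes (14.9% of all genes higher and 11.4% of all genes lower with E2). Without placebo replicate 3 they did not overlap for 4 of the 10, the same 3 genes and Cnn1, and for 41.6% of all genes (21.2% higher and 20.4% lower with E2).

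**Figure D2:**
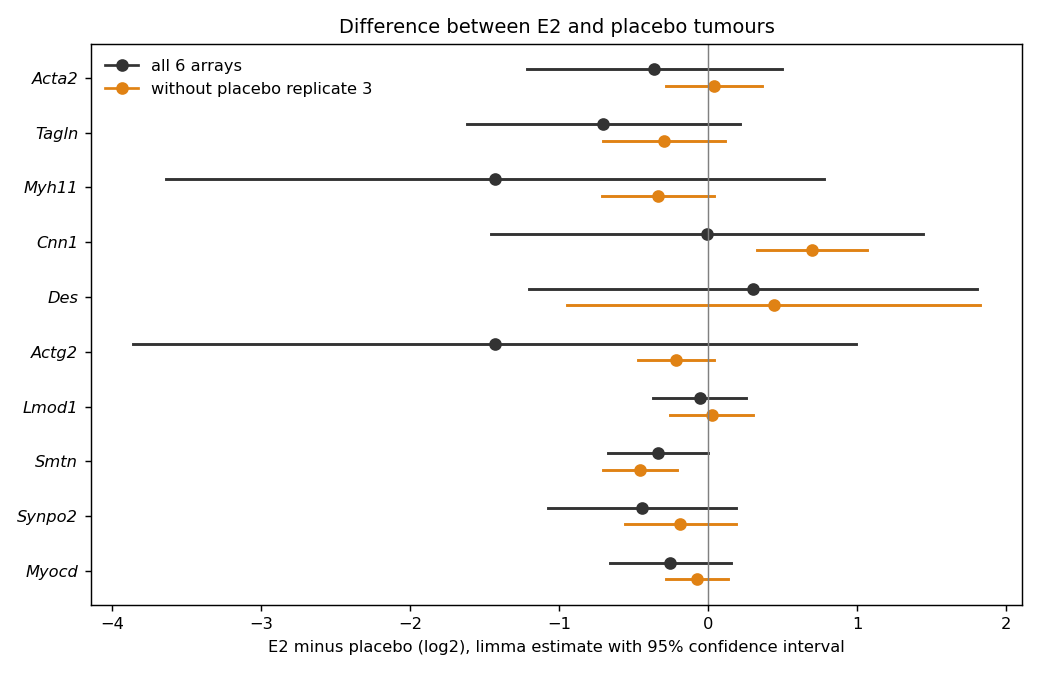
E2 minus placebo on the log2 scale for each smooth muscle contractile gene, as the limma estimate (points) with its 95% confidence interval (lines), on all 6 arrays and without placebo replicate 3. The intervals of Myh11, Actg2 and Cnn1 narrow without that array, Cnn1 lies at 0.69 without it and at -0.01 with it, and Des stays wide in both.

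Of the cytoskeletal genes, Des had its peaks on other arrays and Synpo2 did not. Des, the desmin gene, which skeletal and heart muscle express as well as smooth muscle, measured 7.16, 6.91 and 8.51 in the E2 tumours and 6.14, 8.04 and 7.51 in the placebo tumours. Its highest values were in E2 replicate 3 and placebo replicate 2, and the groups overlapped over most of their range, and the difference was 0.30 log2 (SE 0.62, limma adjusted p = 0.837). The 14 skeletal muscle markers, such as Acta1, Ckm and Myh4, had a mean log2 value of 6.69, 6.21 and 8.37 in the E2 tumours and 6.32, 8.64 and 4.97 in the placebo tumours. They too were highest in E2 replicate 3 (8 markers) and placebo replicate 2 (6 markers). Placebo replicate 3 was lowest for 13 of the 14, though not for Des, against 6571 of all 19937 genes. None of the 14 markers passed the comparison in limma, and 0 had an unadjusted p under 0.05. The part of skeletal muscle RNA in the values of Des was not tested.

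Synpo2, the gene of an actin-bundling protein of dense bodies and Z-discs, measured 5.14, 5.04 and 5.39 in the E2 tumours and 5.14, 5.61 and 6.14 in the placebo tumours. Placebo replicate 3 was highest, E2 replicate 2 lowest, and the difference was -0.44 log2 (SE 0.26, limma adjusted p = 0.453). Myocd, the coactivator gene, measured 4.11, 4.18 and 4.06 in the E2 tumours and 4.19, 4.19 and 4.73 in the placebo tumours. On 5 of the 6 arrays it was under the lower quartile of genes, so a level above background was not shown there, and placebo replicate 3 was the exception. The groups were 0.0092 log2 units apart, and the difference was -0.26 log2 as measured (SE 0.17, adjusted p = 0.493).

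**Figure D3:**
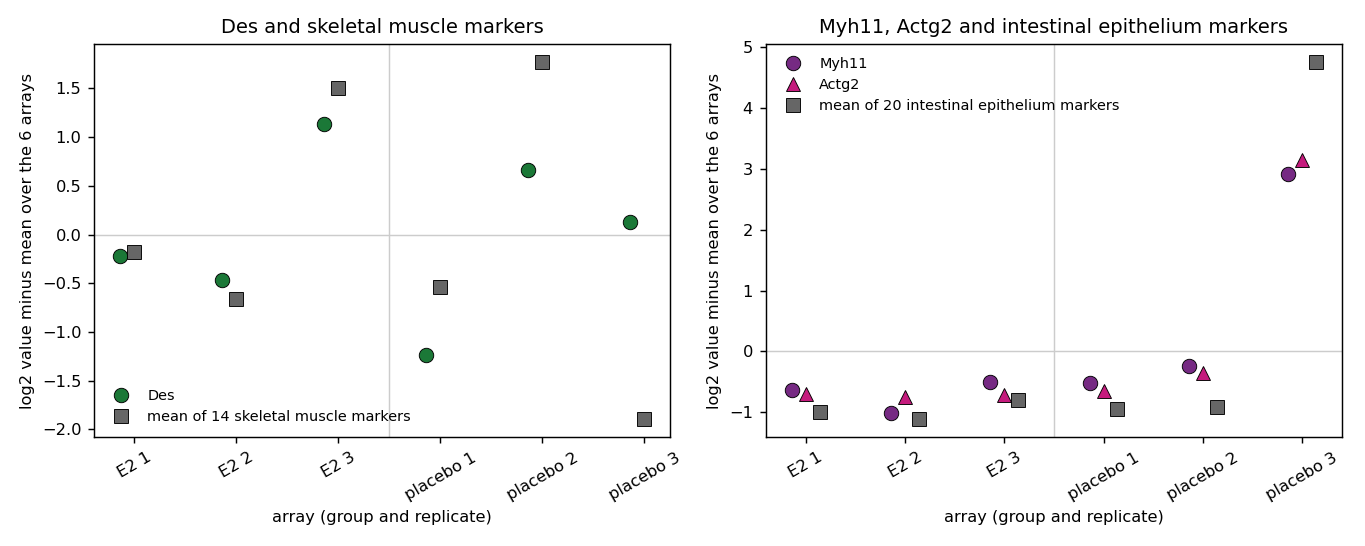
Log2 value minus its mean over the 6 arrays, by array, for Des and the mean of 14 skeletal muscle markers (left), and for Myh11, Actg2 and the mean of 20 intestinal epithelium markers (right). Des and the skeletal markers are both high in E2 replicate 3 and placebo replicate 2 and part in placebo replicate 3, where Myh11, Actg2 and the intestinal markers are all at their highest.

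Across the set, placebo replicate 3 held the highest value of 8 genes, against 27.9% of all genes, and was at least 1 log2 unit above the mean of placebo replicates 1 and 2 for 5 of them (Actg2, Myh11, Cnn1, Tagln and Acta2), against 5.19% of all genes. With 1 such tumour this has no replicate check, and the part of gut tissue in that tumour was not tested. The 10 genes were also chosen with earlier results of these data known. The shift ran from -0.35 log2 for Smtn to 3.65 for Actg2, so the members did not share 1 size of shift. The genes whose array profile came nearest to the mean profile of the 10, by root mean square difference over 6 arrays, were Snx7 (0.068 log2), Galnt5 (0.074), Sfxn1 (0.086), Gcc2 (0.10), Gna11 (0.10), Abhd3 (0.10), Xk (0.10) and Galm (0.10). Among the members, Acta2 (0.13), Tagln (0.15) and Synpo2 (0.18) were nearest and Actg2 (0.92) farthest. Over the 5 arrays without placebo replicate 3, the nearest were Rcan1, Tnnt1, Acadm, 2610301B20Rik, Mccc1, Kcnj11, Camk2b and Rabl6 (0.024 to 0.040). The mean of the 10 on these arrays ran from 5.71 to 6.13 log2, highest in placebo replicate 2 and E2 replicate 3.

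Relatives of the 10 genes were compared by their shift in placebo replicate 3, in log2 units over the mean of the other placebo tumours, and those at 1 log2 unit or more were Krt8, Krt18, Krt19 and Myh14. Among actins, Actg2 (3.65 log2) and Acta2 (1.20) stood above the non-muscle actin gene Actb (0.54) and the cardiac Actc1 (0.35), while the skeletal Acta1 was at -3.45. Actin transcripts are close in sequence, so probes may cross-hybridise and these separate values are uncertain. Among calponins and transgelins, Cnn1 (2.12) and Tagln (1.23) contrasted with Cnn2 (-0.83), Cnn3 (-0.82), Tagln2 (0.067) and Tagln3 (-0.19). Among class II myosin heavy chains, Myh11 (3.28) and the non-muscle Myh14 (2.03) were high in that tumour, Myh9 was near level (0.20) and Myh10 was at -1.81. The leiomodin and tropomodulin relatives ran from -1.11 for Tmod4 to 0.05 for Tmod3, and Lmod1 was at 0.24. Smtnl2 was at -1.55 and Synpo2l at -0.17, beside Synpo2 at 0.76, and the myocardin relatives Mrtfa and Mrtfb were at -0.44 and -0.25, beside Myocd at 0.54. Of the filament genes set beside Des (0.42), Krt8 (3.24), Krt19 (1.52) and Krt18 (1.29) of simple epithelia were high, Synm was at 0.19, and Vim (-0.85) and Nes (-0.72) were low. None of these family members passed the E2 comparison on 6 arrays in limma. Without placebo replicate 3, the log2 values of Myh14 rose by 1.33 (adjusted p = 0.00112) and of Tmod1 by 1.29 (adjusted p = 0.0379), while Smtnl2 fell by 1.51 (adjusted p = 0.00639) and Vim by 0.53 (adjusted p = 0.0388).

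**Figure D4:**
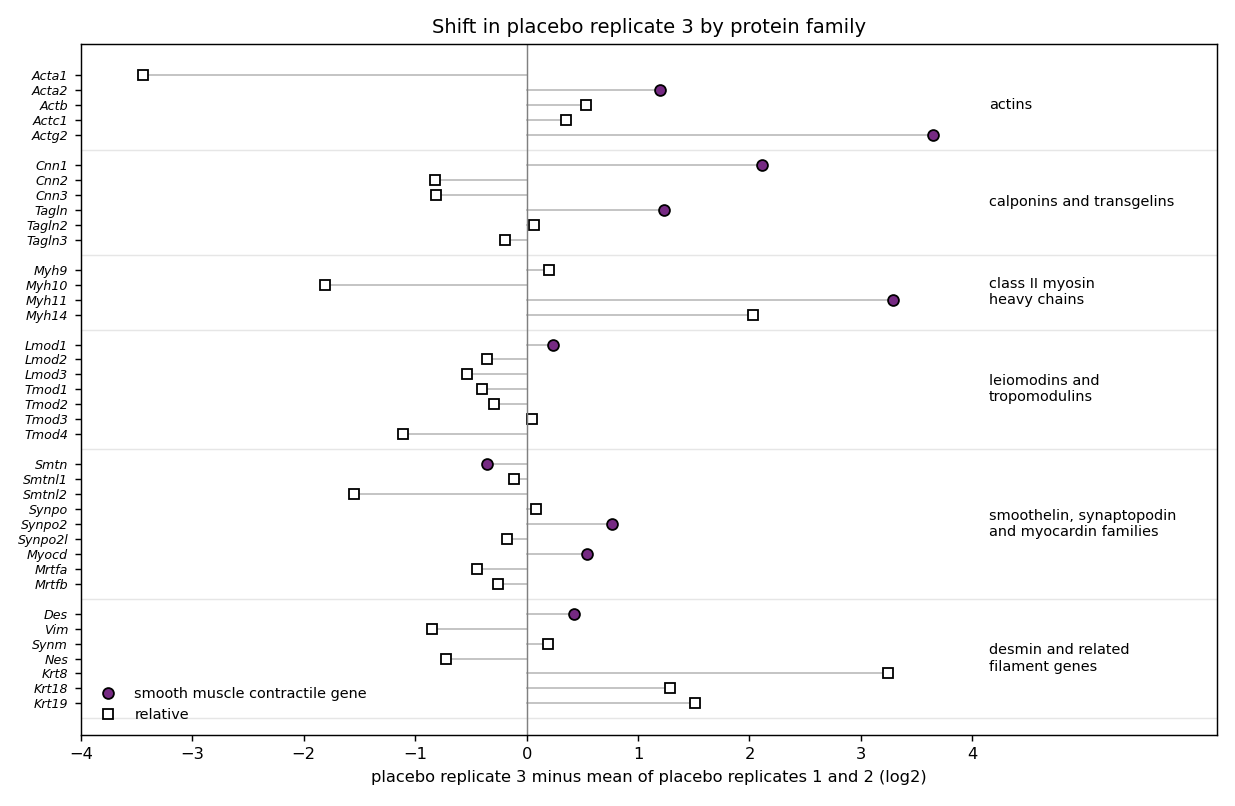
Log2 value in placebo replicate 3 minus the mean of placebo replicates 1 and 2, for the smooth muscle contractile genes (filled circles) and their measured relatives (open squares), grouped by protein family. Actg2, Myh11 and Cnn1 have the largest shifts in their families, and Acta1, the skeletal actin gene, has the lowest value, -3.45.

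Of 26 further contractile and cytoskeletal genes, Cald1 fell and 0 rose on 6 arrays, where 0.326% of all genes fell and 1.06% rose. Of the 26, 6 had an unadjusted limma p under 0.05, against 16.5% of all genes. Their median difference was 0.05 log2, against -0.01 over all genes. Cald1 encodes caldesmon, which blocks myosin from actin in smooth muscle and, as a shorter form, in other cells. It measured 6.38, 6.31 and 6.47 in the E2 tumours and 7.47, 7.29 and 7.52 in the placebo tumours, and fell by 1.04 log2 units (SE 0.098, limma adjusted p = 0.0107). The groups did not overlap, and placebo replicate 3 lay only 0.14 log2 units above the mean of the other placebo tumours. The direction held whichever array was left out, but the adjusted p lay above the threshold without placebo replicate 1 (0.0671) or any of E2 replicates 1 (0.0947), 2 (0.0865) and 3 (0.0676).

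Without placebo replicate 3, 2 of the 26 rose and 2 fell, against 6.4% and 5.21% of all genes. Pgm5, which encodes a protein of muscle adherens junctions, rose by 1.69 log2 units (SE 0.22, limma adjusted p = 0.00292). It measured 6.69, 6.87 and 6.92 in the E2 tumours and 4.72, 5.56 and 6.71 in the placebo tumours, and placebo replicate 3 was the 1 placebo tumour within the range of the E2 tumours. Tpm1, a tropomyosin gene, rose by 0.80 (adjusted p = 0.0295) and lay at 9.38 to 9.98 in the E2 tumours and 8.70 to 9.07 in the placebo tumours. Myl6, the light chain shared by smooth muscle and non-muscle myosin, fell by 0.38 (adjusted p = 0.0382). The phosphorylated light chain gene Myl9 and the kinase gene Mylk did not pass (0.49, adjusted p = 0.154, and 0.01, adjusted p = 0.967), and were 1.30 and 1.20 log2 units higher in placebo replicate 3 than the mean of the other placebo tumours. The 26 genes as a list did not share this shift, and their median shift was -0.23 log2. Placebo replicate 2 held the highest value of 11 and E2 replicate 3 that of 8, against 3355 and 4106 of all 19937 genes. These were the arrays highest in skeletal muscle markers, and the part of skeletal muscle RNA in the 26 was not tested. Of the 26, 3 had a shift of 1 log2 unit or more, against 5.19% of all genes. For 11 of them the lowest value was in placebo replicate 3, as it was for 6571 of all 19937 genes.

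Among 27 genes of contraction signalling and ion channels, 0 passed on 6 arrays in limma (median -0.08 log2). Of the 27, 5 had an unadjusted limma p under 0.05, against 16.5% of all genes. Without placebo replicate 3, 1 rose and 1 fell, against 6.4% and 5.21% of all genes. Cacna1c, the pore of the L-type calcium channel, rose by 0.51 (adjusted p = 0.0274), and Prkg1, the cyclic GMP-dependent kinase that relaxes smooth muscle, fell by 0.86 (adjusted p = 0.0276). Prkg1 measured 4.36, 4.31 and 4.40 in the E2 tumours and 4.84, 5.59 and 4.92 in the placebo tumours, with no overlap. In placebo replicate 3, 4 of the 27 were at least 1 log2 unit above the mean of the other placebo tumours: the muscarinic receptor gene Chrm2 (1.81), the cyclic GMP phosphodiesterase gene Pde5a (1.48), the purinergic receptor gene P2rx1 (1.07) and Kcnmb1 (1.01), a potassium channel subunit of smooth muscle. A shift of at least 1 log2 unit was found in 5.19% of all genes. Chrm2, P2rx1 and Kcnmb1 were under the lower quartile of genes on the 5 other arrays.

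Of 27 regulators of smooth muscle genes, 0 passed on 6 arrays in limma (median -0.16 log2). An unadjusted limma p under 0.05 was found for 4, against 16.5% of all genes. Without placebo replicate 3, 2 rose and 3 fell, against 6.4% and 5.21% of all genes. Srf, the serum response factor gene, measured 6.71, 6.67 and 6.74 in the E2 tumours and 6.93, 6.68 and 6.27 in the placebo tumours, a difference of 0.08 log2 (adjusted p = 0.838) with placebo replicate 3 lowest. The TGF-beta genes went opposite ways in the comparison without that array: the ligand gene Tgfb3 fell by 1.41 (adjusted p = 0.00139), while Tgfb1 rose by 0.42 (adjusted p = 0.0315) and the signal transducer gene Smad3 by 0.53 (adjusted p = 0.0117). Jag1, a Notch ligand gene, fell by 0.96 (adjusted p = 0.000854) and Foxf1, a transcription factor of gut mesenchyme, by 0.48 (adjusted p = 0.0238). Klf5 and Klf4, which smooth muscle and gut epithelium both express, were 2.64 and 1.75 log2 units higher in placebo replicate 3 than the mean of the other placebo tumours. They were the only 2 of the 27 with a shift of 1 log2 unit or more, against 5.19% of all genes. The median shift of the 27 was -0.36 log2. Placebo replicate 3 held the lowest value of 14 of the 27, against 6571 of all 19937 genes.

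Markers of the cells that could carry smooth muscle genes were set beside the 10. Over all genes, 16.5% had an unadjusted limma p under 0.05 on 6 arrays, and 5.21% fell and 6.4% rose without placebo replicate 3. Of 10 pericyte markers, 0 passed on 6 arrays in limma (3 had an unadjusted p under 0.05; median -0.45 log2), and 4 fell and 1 rose without placebo replicate 3. Mcam fell by 0.93 (adjusted p = 0.00226), Notch3 by 0.81 (adjusted p = 0.00635), Cspg4 by 0.72 (adjusted p = 0.00259) and Rgs5 by 1.10 (adjusted p = 0.0337), while Ndufa4l2 rose by 0.81 (adjusted p = 0.0417). The mean log2 value of the 10 was 5.65 to 5.83 in the E2 tumours and 5.90 to 6.13 in the placebo tumours. Placebo replicate 3 was lowest for 5 of the 10, against 6571 of all 19937 genes. Of 15 fibroblast and myofibroblast markers, 0 passed on 6 arrays (5 had an unadjusted p under 0.05; median -0.51 log2), and 7 fell and 1 rose without placebo replicate 3, among them the collagen gene Col3a1 (-1.52, adjusted p = 0.00689) and Pdgfra (1.08, adjusted p = 0.0127). Acta2, which both cell types can express, did not pass in either comparison.

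Among 12 endothelial markers, Kdr, a VEGF receptor gene, rose by 2.07 log2 units on 6 arrays (limma adjusted p = 0.0136) and 0 fell. Kdr went against its list, in which 11 of the 12 means were lower with E2 (median -0.40 log2). Over all genes, 10306 of 19937 means were lower. An unadjusted limma p under 0.05 was found for 7 markers, against 16.5% of all genes. The groups did not overlap for 8 markers lower and 1 higher with E2, against 11.4% and 14.9% of all genes. Without placebo replicate 3, Kdr rose and 4 fell, against 6.4% higher and 5.21% lower over all genes. On 6 arrays the call of Kdr was lost without placebo replicate 1 (adjusted p = 0.0711) or E2 replicate 1 (0.0994), 2 (0.0596) or 3 (0.0676). Of the other cells of the gut wall, interstitial cells of Cajal had 5 markers (median -0.50 log2), and 0 passed on 6 arrays in limma. Of the 5, 4 had an unadjusted p under 0.05, against 16.5% of all genes. Without placebo replicate 3, 2 of them fell, Kit and Ano1, against 5.21% of all genes. The median shift of the 5 in placebo replicate 3 was 0.12 log2, with Kit at 0.56 and Ano1 at -1.51. Ano1 measured 7.58, 6.27 and 5.41 in placebo replicates 1, 2 and 3. In 12 enteric neuron and glia markers, Tubb3, a neuronal tubulin gene, rose by 0.95 log2 units on 6 arrays (adjusted p = 0.0361; 1 had an unadjusted p under 0.05; median -0.12 log2), and the median shift in placebo replicate 3 was 0.11 log2. The call of Tubb3 was lost without placebo replicate 2 (adjusted p = 0.0848) or E2 replicate 1 (0.165), 2 (0.186) or 3 (0.183). In the comparison without placebo replicate 3, Tubb3 rose by 0.90 (adjusted p = 0.00513) and Prph, a neuronal intermediate filament gene, fell by 0.73 (adjusted p = 0.00913). Of 9 cardiac muscle markers 0 passed (1 had an unadjusted p under 0.05; median -0.04 log2). Their part in the values of the smooth muscle genes was not tested.

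**Figure D5:**
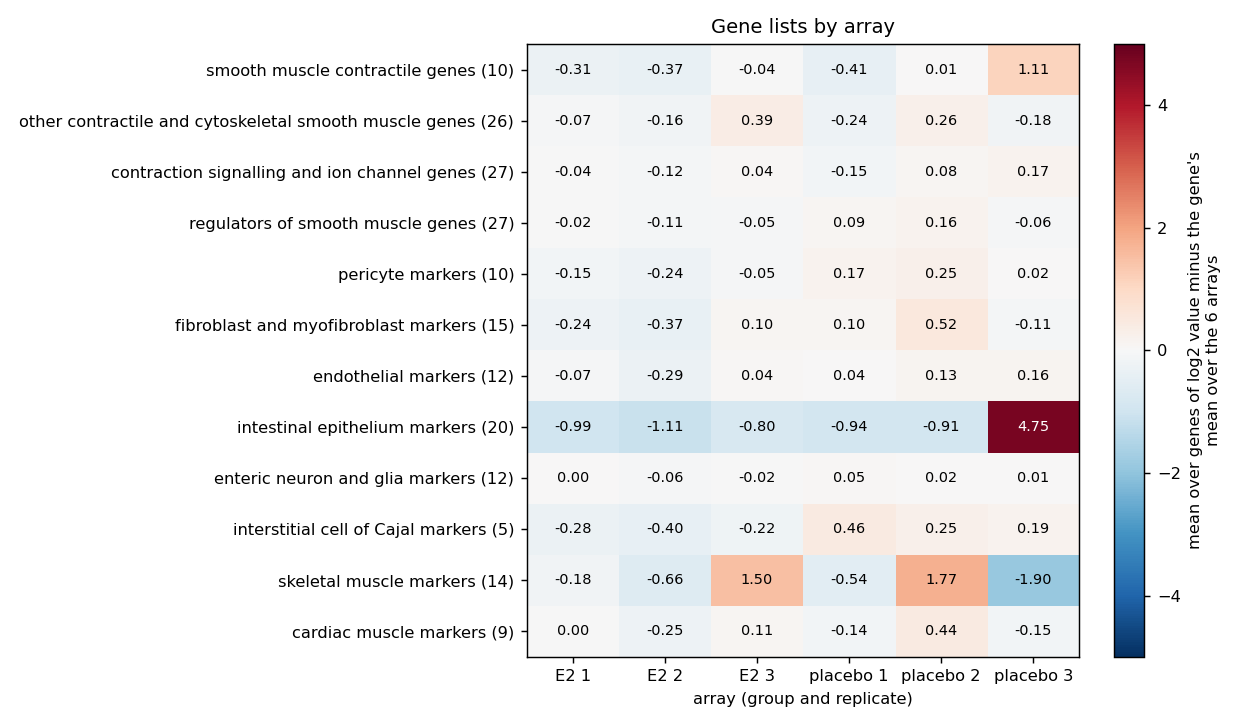
Mean over the genes of each list of the log2 value minus that gene's mean over the 6 arrays, by array, with the number of measured genes in brackets. Placebo replicate 3 is high for the smooth muscle contractile genes (1.11) and the intestinal epithelium markers (4.75) and low for the skeletal muscle markers (-1.90), which are high in E2 replicate 3 and placebo replicate 2 (1.77).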

How the data were processed

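Affymetrix arrays measured RNA of 6 tumours, labelled with biotin per the labels' protocols. The authors deposited log2 intensities, and the submitters' processing notes name RMA; its version is not given in the sources used. RMA equalises array distributions and compresses change near background. Of 34760 probe sets, 21640 carried 1 gene symbol, 1321 several, and 11799 are unnamed here. A gene with several was represented by the probe set of highest mean, giving 19937 genes. E2 and placebo were compared with limma 3.58.1 (lmFit, eBayes; R 4.3.3) on group means, two-sided, with Benjamini-Hochberg adjustment over all genes. The samples are separate tumours, and their number limits precision.

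The members and the other 17 gene lists (218 symbols in all, 210 measured, 4 under a newer name), written from textbook knowledge, were chosen with earlier results of these data known. Besides the members, Greb1, family relatives and nearest profiles, up to 6 genes of each list by smallest p were to be named; Chrm2, Pde5a, P2rx1, Kcnmb1, Klf4, Klf5, Myl9, Mylk, Srf, Acta1, Ckm, Myh4, Fabp1 and Sis were picked with their values in view. The limma step was tested on simulated data. Promoters are from RefSeq.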

Additional observations from a re-analysis of the deposited data

How the results depend on the processing

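Leaving out placebo replicate 3 moved the median member difference from -0.35 to -0.13 log2. It turned the direction of Acta2, Cnn1 and Lmod1, and Cnn1 and Smtn then passed the threshold. Over the fits that each left out 1 array, limma called 31 to 1276 genes higher and 0 to 1039 lower (at an unadjusted p under 0.05, the fit with 0 lower, without E2 replicate 1, had 917), and 0 to 1 of the members in each direction. Genes called higher and lower were 10 and 0 with a replicate block (886 lower at an unadjusted p under 0.05), 342 and 80 with median centring, and 1026 and 760 with array weights, which also called 1 member, Smtn, lower (-0.44, adjusted p = 0.0427). No pairing by replicate number was seen in deviations from the group means (same-numbered correlations -0.029, -0.182 and -0.13). Such deviations sum to 0 within a group, so these correlations cannot exclude a pairing. The block called 0 members (1 at an unadjusted p under 0.05). Chosen after seeing the data, the fit without placebo replicate 2 and E2 replicate 3, the arrays highest in skeletal muscle markers, called 0 genes in either direction (1256 higher and 567 lower at an unadjusted p under 0.05). The 5 fits without placebo replicate 3 and 1 further array, also added then, called 688 to 1143 genes higher and 530 to 1037 lower.

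Over all fits that left out 1 array, or placebo replicate 3 and 1 more, the log2 difference ranged from -0.63 to 0.18 for Acta2, from -0.45 to 0.87 for Cnn1, from -0.51 to 1.39 for Des, from -0.16 to 0.087 for Lmod1 and from -0.69 to 0.047 for Synpo2. Acta2 was above 0 in the fit without placebo replicate 3, Des was below 0 without placebo replicate 1 (-0.25) or E2 replicate 3 (-0.19), and Synpo2 was above 0 without placebo replicates 2 and 3. Cnn1 was also 0.036 with median centring and 0.55 with array weights, and Lmod1 0.027 after repeated quantile normalization and 0.028 with array weights. The cause was not tested. Actg2, Myh11, Tagln, Smtn and Myocd kept their direction in every fit that held them, and Myocd had no value in the fit to genes above the 25th percentile. Of the member values under these alternatives, 159 kept their direction and call, 27 turned, and 3, all of Smtn, kept their direction and passed the threshold; among those that turned, Cnn1 passed without placebo replicate 3 (adjusted p = 0.0288) and without placebo replicates 2 and 3 (0.017). With 3 arrays against 3, no exact permutation test of 1 gene can go below p = 0.10, and low values such as those of Myocd are limited by signal over background.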
